A study of Mus musculus with 6 samples.

Results

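Rapgef1 and 8 other genes of Rap1 signalling were followed through sorted bone marrow plasma cells of old and young mice. The 9 genes are the exchange factors Rapgef1, Rapgef2 and Rapgef6, the GTPases Rap1a and Rap1b, the adaptors Crk and Crkl, the inhibitor Sipa1 and the effector Rassf5. They were taken by gene symbol from a deposited table of 13642 genes, and all 9 were present. They were selected on the FPKM values of Rapgef1, which differed between old and young libraries in this same table, so differences between the groups are given for the 9 genes as a description, without a test.

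The samples were labelled as long-lived plasma cells of C57BL/6J mice, a cell type that goes on releasing antibody from the marrow for long times. Whether the sorted cells still divided was not tested. The cell division genes Mki67 and Top2a, picked with their values in view, averaged 154 and 34.8 FPKM over the 6 libraries. Old mice were 17 to 19 months of age, male, and from the National Institute on Aging colony. Young mice were 2 to 3 months of age, female, and bred either at the Jackson Laboratory or at UCLA, so that age, sex and supplier cannot be told apart. The sort kept cells with much CD138 and without B220, IgD, T cell receptor chains (both types), Gr-1 and CD11b, and 3 libraries were made per group. The labels do not say whether a library came from 1 animal or a pool, so the spread between libraries may be partly technical.

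Rap1 is a small GTPase that is inactive with GDP bound and active with GTP bound. Exchange factors load it with GTP, and GTPase-activating proteins switch it off. In lymphocytes, receptor signals bring Rapgef1 to the membrane through the SH3 domains of Crk and Crkl. Active Rap1 then acts through effectors such as Rassf5 (RAPL) and Apbb1ip (RIAM) on the integrins LFA-1 and VLA-4. Integrins and the chemokine receptor Cxcr4 are known for holding plasma cells in their marrow niches.

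Plasma cell genes were abundant in every library. The summed FPKM (fragments scaled by gene length and library total) of Sdc1, Xbp1, Prdm1, Irf4, Jchain, Tnfrsf17 and Mzb1 was 22205, 22435 and 8802 in old replicates 1 to 3. It was 19530 to 22850 in young libraries, so old replicate 3 stood apart. Jchain made up most of each sum, at 7514 to 19583.5 FPKM in old and 16937.5 to 19793 FPKM in young libraries. By group mean, 1 of the 7 genes was higher in old libraries, and old replicate 3 was the lowest library for each gene. Old replicate 3 also had the highest summed monocyte, erythroid and platelet markers of all 6 libraries. Young replicate 3 had the fewest genes above 0, 8934, against 9974 to 12049 in the other libraries. Its estimated depth, 22.4 M fragments, was also the lowest, against 24.5 M to 28.1 M in the others.

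Rapgef1 lies on chromosome 2 (29619720 to 29740978, plus strand, GRCm38) with 27 merged exons of 7385 bases in all. The 250 bases before its start (chr2:29619470-29619719, GRCm38.p6, plus strand, from RefSeq) are shown because it is the one of the 9 genes whose level differed most between the groups. Capitals mark a CCAAT box, read here on the opposite strand.
Rapgef1: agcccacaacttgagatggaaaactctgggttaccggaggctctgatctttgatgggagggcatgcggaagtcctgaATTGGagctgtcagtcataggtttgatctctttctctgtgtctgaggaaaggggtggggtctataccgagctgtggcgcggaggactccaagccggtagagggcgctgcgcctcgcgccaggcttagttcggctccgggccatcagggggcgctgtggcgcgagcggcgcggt

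Both strands were searched for 5 short motifs, none of which contains another. The box spelled CCAAT began 173 bases before the start of Rapgef1 and was present in 33.8% of 32851 promoter windows of the same length. The GC box, searched with the letters GGGCGG, had no match and was present in 32.7% of all windows. The TATA box, searched as TATAAA, had no match and was present in 12.4%. The E-box, whose letters are CACGTG, had no match and was present in 6.02%. The ETS core, taken to be CCGGAA, had no match either and was present in 12.0%. The window had a GC content of 60.8% and 18 CpG dinucleotides, against medians of 52.4% and 6 over all windows. Promoter windows were matched for 8 of the 9 genes, and CCAAT boxes were also found in those of Crk, Crkl and Sipa1. A match to these letters is not a bound site.

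Of the 3 exchange factors, Rapgef1 was the most abundant in every library. It was at 69.4, 69.9 and 59.9 FPKM in old libraries, against 148, 162 and 151 FPKM in young libraries. The groups did not overlap, and the lowest young value was 2.12 times the highest old value. The means were 66.4 ± 5.65 FPKM in old and 154 ± 7.65 FPKM in young libraries (SD, n = 3 each), a ratio of 0.432. On the log2(FPKM + 1) scale used for all differences, old minus young was -1.20 ± 0.29 (limma SE). Rapgef1 was lower in old replicate 3, whose plasma cell markers were low, than in old replicates 1 and 2. Without that library the difference was -1.13. Leaving out each other library in turn gave differences down to -1.24, and scaling by median ratios gave -1.30. By level, Rapgef1 ranked 644 in old and 222 in young libraries among the 10687 genes with a mean of at least 1 FPKM.

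**Figure D1:**
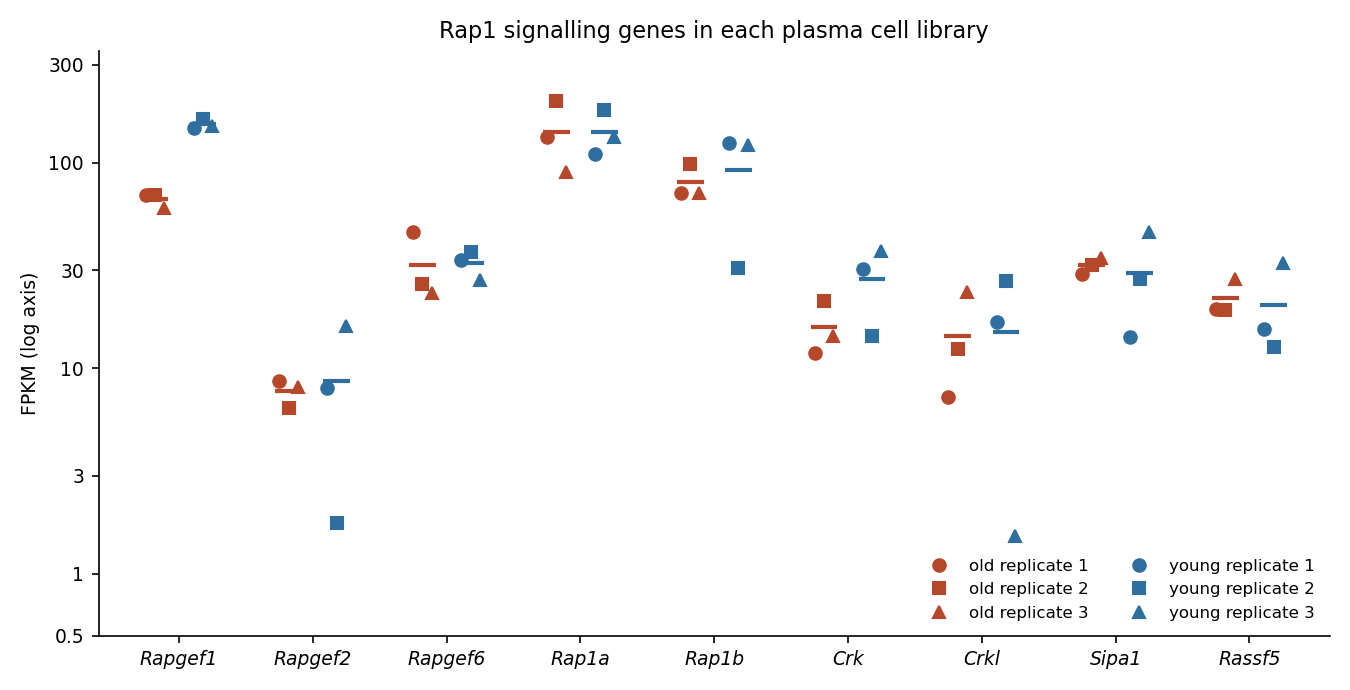
FPKM of the 9 Rap1 signalling genes in each library (log axis), with old libraries in red left of young libraries in blue, a symbol for each replicate number and a bar at each group mean. Rapgef1 is the gene whose groups do not overlap, at 59.9 to 69.9 FPKM in old and 148 to 162 FPKM in young libraries, while Rapgef2 is lowest in young replicate 2 and Crkl in young replicate 3.

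Replicates agreed more closely for Rapgef1 than for the other 8 genes. The coefficient of variation was 8.50% in old and 4.98% in young libraries. The within-group SD of log2(FPKM + 1), pooled over both groups, was 0.101, and 9 of the 2835 genes with a mean of at least 20 FPKM had a smaller one. The median over those genes was 0.563. The values behind this closeness are the ones Rapgef1 was selected on. The SE of 0.29 is wider than this spread alone would give, because limma draws each gene's variance toward that of genes at a similar level. From the low steps of the table, an estimated 11815 to 14524 fragments lay behind the old values of Rapgef1 and 24921 to 30214 behind the young ones. The error expected from counting that many fragments was small beside the difference. Amplified reads are not independent molecules, so error from amplification is not covered by this.

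**Figure D2:**
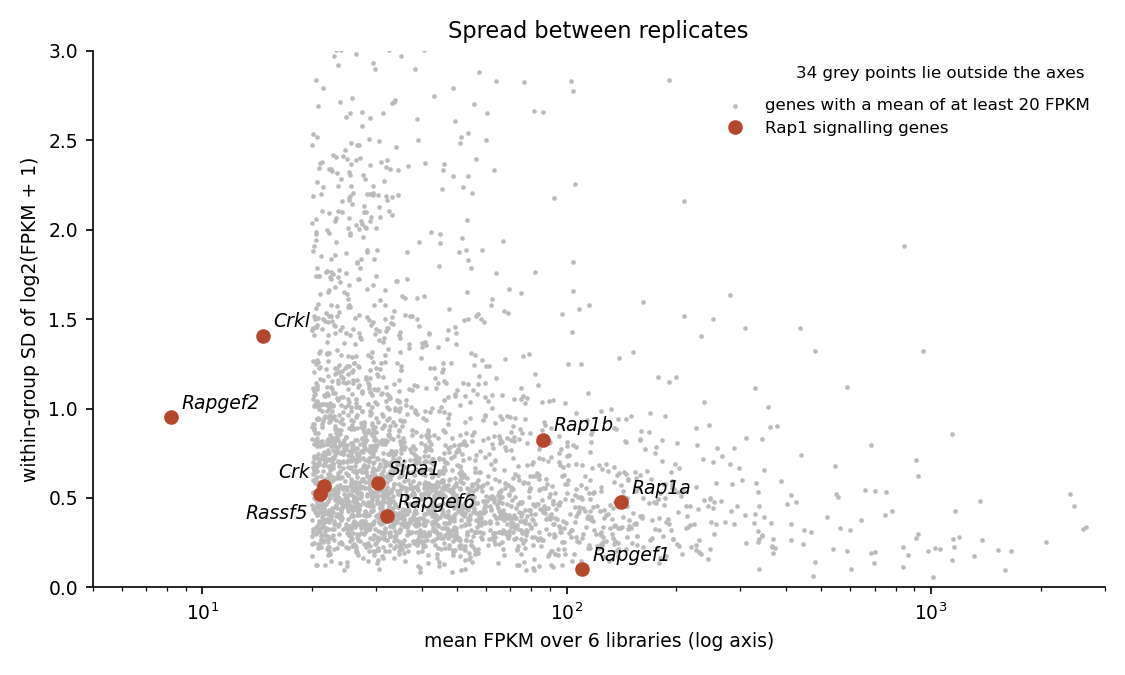
Within-group SD of log2(FPKM + 1), pooled over old and young libraries, against mean FPKM over 6 libraries (log axis), for the 9 named genes (red) and for genes with a mean of at least 20 FPKM (grey). Rapgef1 sits at 0.101 near the lower edge, and Crkl is highest of the 9 at 1.41.

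Rapgef6 (PDZ-GEF2), an exchange factor for Rap proteins on chromosome 11 (54522847 to 54699285), had nearly equal group means. It was at 46.1, 25.7 and 23.2 FPKM in old libraries and at 33.8, 36.7 and 27.0 FPKM in young libraries. Old replicate 1 was the highest library and old replicates 2 and 3 the lowest, so the young range lay inside the old one. The difference was -0.09 ± 0.43 (log2, limma SE).

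Rapgef2 (PDZ-GEF1), a close relative of Rapgef6 on chromosome 3 (79062516 to 79286517), was the least abundant of the 9 genes. It was at 8.71, 6.43 and 8.09 FPKM in old libraries and at 8.05, 1.77 and 16.1 FPKM in young libraries. Both the lowest and the highest value came from young libraries, replicates 2 and 3. Its log2 difference of 0.20 ± 0.81 (limma SE) had the opposite sign to that of the FPKM means, 7.75 ± 1.18 in old and 8.65 ± 7.19 in young libraries (SD, n = 3 each).

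The balance among the 3 exchange factors therefore differed between the groups. Rapgef1 made up 55.9%, 68.5% and 65.7% of their summed FPKM in old libraries and 78.0%, 80.8% and 77.8% in young libraries. The share of Rapgef6 was 25.2% to 37.1% in old and 13.9% to 18.3% in young libraries, again without overlap. Their sum was 106 ± 16.8 FPKM in old and 195 ± 5.65 FPKM in young libraries (SD, n = 3 each). These shares and sums contain Rapgef1 and carry its difference.

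The GTPases Rap1a and Rap1b encode near-identical proteins, and their coding sequences show how far reads can tell them apart. Each has 552 coding bases, of which 81.7% are identical, and 76 of the 85 differing codons encode the same residue. The longest identical run was 20 bases, against reads of 150 bases. That run is shown with its surroundings (coding bases 55 to 122, GENCODE M21 transcripts, chromosome 3 for Rap1a and chromosome 10 for Rap1b). Capitals mark the 8 bases that differ, none of which changes the residue.
Rap1a: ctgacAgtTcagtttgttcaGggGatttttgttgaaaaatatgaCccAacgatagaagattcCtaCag
Rap1b: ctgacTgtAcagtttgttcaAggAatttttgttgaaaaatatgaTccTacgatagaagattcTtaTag

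Across whole transcripts, no window of 75 bases was shared between Rap1a and Rap1b. In Rap1a, 4.48% of such windows were shared with Gm9392, and the other 8 genes shared none with any annotated gene. Transcripts were compared in the sense direction only, so overlap on the opposite strand was not covered. There the pseudogene Gm9823 overlaps 4.43% of Rapgef1's exonic bases, and Eif2d overlaps 1.95% of those of Rassf5.

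Rap1a (105727267 to 105801336, minus strand) was among the more abundant genes of the 9 in both groups. It was at 133, 200.1 and 90.3 FPKM in old libraries and at 109.8, 179.7 and 133 FPKM in young libraries. The groups overlapped widely, and replicate 2 was the highest library in each. The means were 141 ± 55.3 FPKM in old and 141 ± 35.6 FPKM in young libraries (SD, n = 3 each), with a log2 difference of -0.04 ± 0.36 (limma SE).

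Rap1b (117813871 to 117846035, minus strand) was at 71.1, 98.8 and 71.0 FPKM in old libraries and at 125, 30.7 and 121 FPKM in young libraries. The old values lay between young replicate 2 and the other young libraries. Its log2 difference was 0.03 ± 0.52 (limma SE), and it was -0.63 without young replicate 2. Rap1a made up 85.4% of the summed FPKM of both GTPases in young replicate 2, against 46.8% and 52.3% in the other young libraries and 56.0% to 67.0% in the old ones. The sum varied less than its parts in young libraries. It was 222 ± 70.4 FPKM in old and 233 ± 21.9 FPKM in young libraries (SD, n = 3 each).

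Set against their substrate, Rapgef1 transcripts amounted to 0.340, 0.234 and 0.371 FPKM per FPKM of Rap1a and Rap1b together in old libraries. In young libraries the same ratio was 0.631, 0.772 and 0.594. The groups did not overlap in this ratio, which again holds the difference of Rapgef1.

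**Figure D3:**
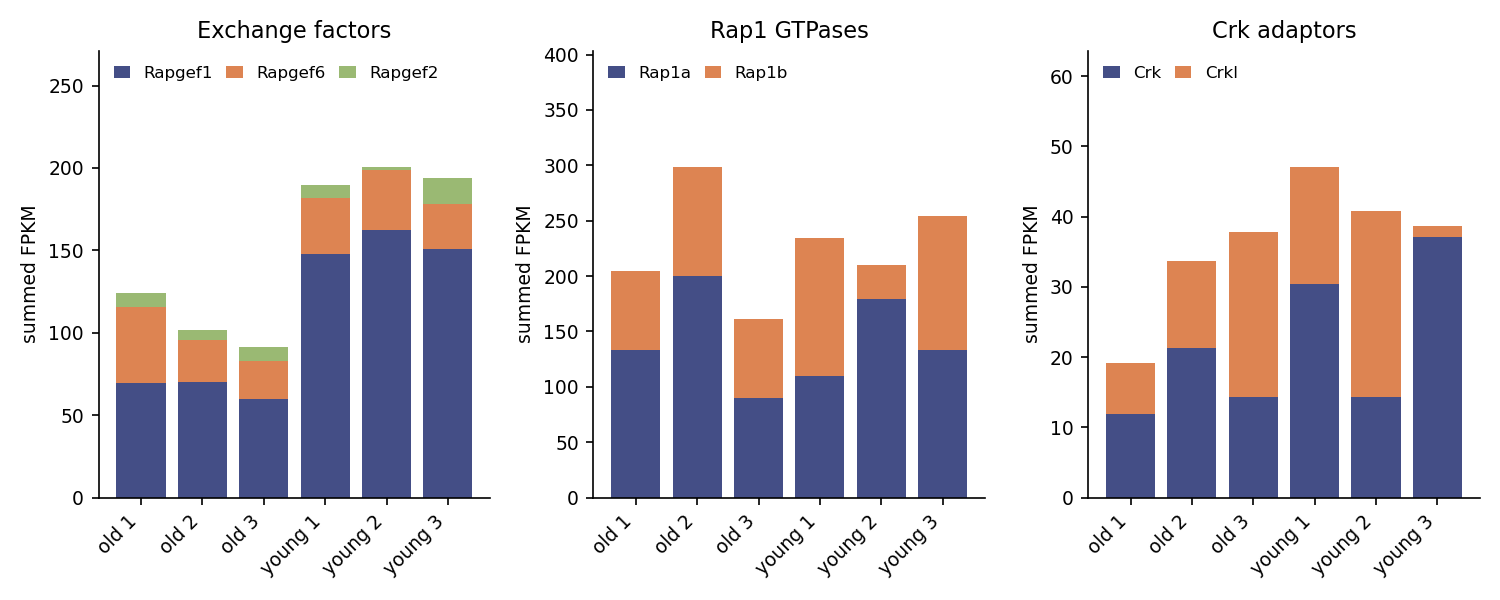
Summed FPKM in each library, old libraries left of young ones, for the exchange factors (left), the Rap1 GTPases (middle) and the Crk adaptors (right), with bars from 0 divided by gene. The exchange factor bars are shorter in old libraries through their Rapgef1 part, and young replicates 2 and 3 differ in which adaptor prevails. Rap1a takes its largest share of a GTPase bar in young replicate 2.

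Crk and Crkl are adaptors whose SH2 domains bind phosphotyrosine and whose SH3 domains carry Rapgef1. Crk (chromosome 11, 75679259 to 75706908) was at 11.9, 21.3 and 14.4 FPKM in old libraries and at 30.4, 14.3 and 37.1 FPKM in young libraries. Young replicate 2 lay among the old libraries, so the groups overlapped. The means were 15.9 ± 4.86 FPKM in old and 27.3 ± 11.7 FPKM in young libraries (SD, n = 3 each), and the log2 difference was -0.68 ± 0.52 (limma SE). Leaving out young replicate 2 gave -1.08, and leaving out young replicate 3 gave -0.42.

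Crkl (chromosome 16, 17451987 to 17487434) was the least even of the 9 genes. It was at 7.28, 12.4 and 23.4 FPKM in old libraries and at 16.7, 26.5 and 1.53 FPKM in young libraries. The value of young replicate 3 corresponds to an estimated 173 fragments, against 995 to 3371 in the other libraries. The log2 difference was 0.38 ± 0.90 (limma SE) and was -0.66 without that library. Crk took 96.0% of the summed FPKM of both adaptors in young replicate 3 and 35.1% in young replicate 2. Together the adaptors were at 19.2, 33.7 and 37.7 FPKM in old and 47.1, 40.9 and 38.6 FPKM in young libraries. These sums did not overlap, but the gap between the groups was smaller than the SD of either, 9.75 FPKM in old and 4.40 FPKM in young libraries.

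Sipa1 (SPA-1, chromosome 19, 5651185 to 5663707), a GTPase-activating protein that switches Rap1 off in blood cells, was close to even in old libraries. It was at 28.6, 31.7 and 34.5 FPKM in old libraries and at 14.2, 27.2 and 46.1 FPKM in young libraries. The old values all lay within the young range, and the log2 difference was 0.26 ± 0.49 (limma SE). Rapgef1 exceeded Sipa1 2.43, 2.21 and 1.73 times in old libraries and 10.4, 5.98 and 3.27 times in young libraries. The groups did not overlap in this ratio, but young replicate 3 lay nearer to the old libraries than to young replicate 1. This ratio too holds the difference of Rapgef1.

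Rassf5 (chromosome 1, 131176410 to 131245258), the effector that binds active Rap1 and the kinase Stk4, was at 19.3, 19.3 and 27.3 FPKM in old libraries. It was at 15.5, 12.6 and 32.6 FPKM in young libraries. The old values again lay within the young range, and the log2 difference was 0.21 ± 0.51 (limma SE). Young replicate 3 was the highest of the 6 libraries for Rassf5, Sipa1, Crk and Rapgef2, and the lowest for Crkl.

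Seen together, the groups overlapped for 8 of the 9 genes. Rapgef1 was the 1 gene with all old libraries below the young ones, which held for 3.42% of all genes tested and nothing is read from this count because the gene was chosen on it. All 9 genes passed the filter on low values. Old minus young was positive for 5 of them and negative for 4, with a median of 0.03, against 0.23 over all genes tested. Of all genes tested, 6552 were positive and 4135 negative. By mean FPKM, 6 of the 9 genes were lower in old libraries. Rapgef2, Rap1a, Rap1b and Crkl differed in sign between mean FPKM and the log2 scale. At a Benjamini-Hochberg adjusted p under 0.05, limma called 0% of the 10687 genes tested, of which 632, or 5.91%, had an unadjusted p under 0.05. On the log2(FPKM + 1) scale the SD was wider in young than in old libraries for 6 of the 9 genes, and for 65.8% of all genes tested.

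**Figure D4:**
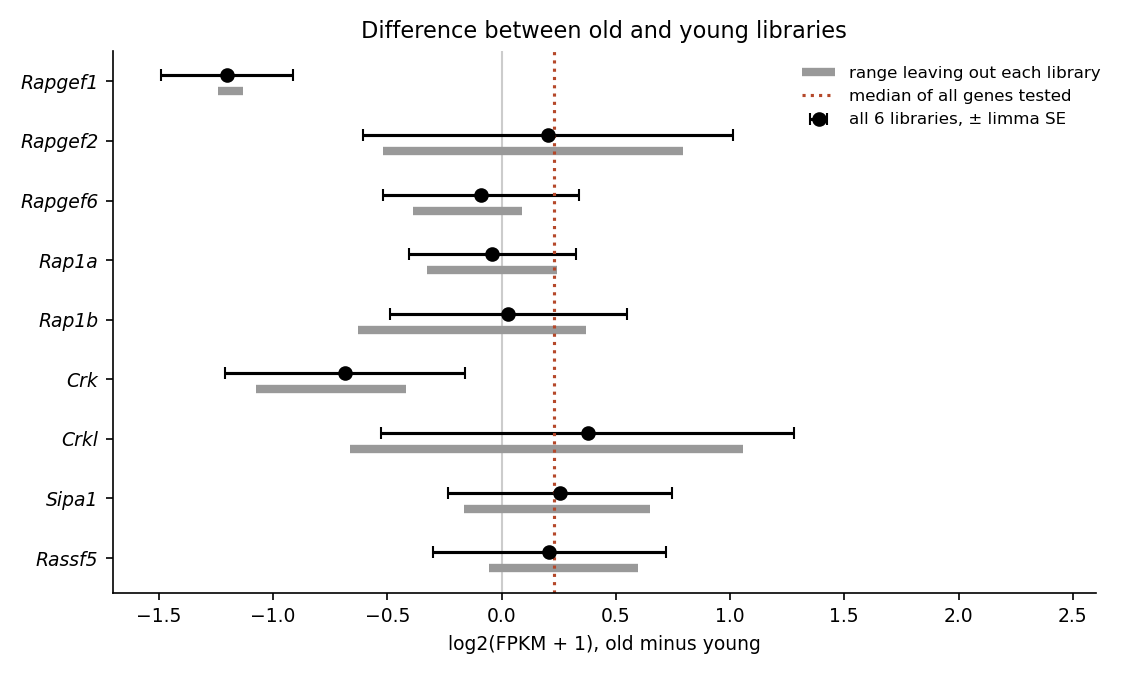
Old minus young difference in log2(FPKM + 1) for each of the 9 genes, as a point with the limma SE over all 6 libraries and as a grey bar from the lowest to the highest value when each library is left out in turn. Rapgef1 stays between -1.24 and -1.13 and Crk stays below 0, while the bars of the other 7 genes reach both sides of 0.

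The order of the 9 genes by level changed mainly through Rapgef1. In old libraries Rap1a and Rap1b were highest and their ranges overlapped, Rapgef1 followed just below the range of Rap1b, and Rapgef6 came next at a distance. In young libraries Rapgef1 was highest, with a range that overlapped that of Rap1a, and Rap1b came after them. Rapgef6, Sipa1, Rassf5, Crk and Crkl followed in both groups at means of 14.3 to 32.5 FPKM, mostly with overlapping ranges, and Rapgef2 was lowest.

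Genes with a profile like that of Rapgef1 were sought among 2834 other genes with a mean of at least 20 FPKM. Likeness was the root mean square difference between log2 profiles over the 6 libraries, each centred on its own mean. The nearest was Yipf3, which encodes a Golgi membrane protein, at 0.148. It averaged 17.2 ± 3.35 FPKM in old and 39.3 ± 4.95 FPKM in young libraries (SD, n = 3 each). Sart3, a splicing factor, followed at 0.199, and Trappc12, a subunit of a vesicle tethering complex, at 0.215. Ubald2, Ly6d and Zkscan6 came next, at 0.227 to 0.252. Ly6d, a lymphoid surface protein gene, was at 165 ± 24.7 FPKM in old and 302 ± 34.3 FPKM in young libraries. Crk stood at 0.556 and in place 411, followed by Rapgef6 at 0.625 and Rap1a at 0.661. Rap1b, Sipa1 and Rassf5 were farther away. Rapgef6 and Rap1a had log2 differences of only -0.09 and -0.04, so a likeness value of this size does not show a shared profile. All likeness values rest on the values that Rapgef1 was selected on. Rapgef2 and Crkl had means below 20 FPKM over the 6 libraries and were not compared.

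To set the 9 genes in their pathway, 79 further symbols in 6 lists were examined, of which 74 were in the table and 67 passed the filter. Limma called 0 of the 67 at an adjusted p under 0.05. At an unadjusted p under 0.05, 4 were higher and 1 was lower in old libraries, against 4.66% and 1.25% of all genes tested. Old libraries were all above young ones for 7 and all below for 2, against 8.78% and 3.42% of all genes tested. The median difference of the 67 was 0.21, close to the 0.23 of all genes tested, and 44 had a positive sign.

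Of the upstream kinases and adaptors, 16 were tested and 1 had a small p. Fyn, a Src family kinase, was at 74.6, 37.1 and 35.0 FPKM in old libraries and at 8.97, 14.9 and 8.62 FPKM in young libraries. Every old library was above every young one, and old replicate 1 was the highest. The log2 difference was 2.03 ± 0.49 with a limma adjusted p = 0.623. Ptpn1, a tyrosine phosphatase, had the opposite sign, at 16.0 ± 2.57 FPKM in old and 32.3 ± 5.71 FPKM in young libraries (SD, n = 3 each; limma adjusted p = 0.839). Cblb, a ubiquitin ligase, was at 3.80, 9.23 and 11.2 FPKM in old libraries and at 6.16, 0.593 and 0.00711 FPKM in young libraries (limma adjusted p = 0.839). Dock2, a Rac exchange factor of leukocytes picked with its values in view, was nearly level, at 89.6 ± 9.51 FPKM in old and 94.1 ± 1.32 FPKM in young libraries.

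Other exchange factors had lower mean FPKM than Rapgef1, and 0 of the 7 tested had a small p. Rasgrp3, which responds to diacylglycerol, was at 39.2 ± 7.62 FPKM in old and 49.1 ± 9.89 FPKM in young libraries (SD, n = 3 each; limma adjusted p = 0.884). Rapgef5 was at 23.6, 8.84 and 1.60 FPKM in old libraries and at 27.2, 23.4 and 11.8 FPKM in young libraries (limma adjusted p = 0.848). Rasgrp1 was listed at 0 in old replicate 1 and young replicates 2 and 3, and reached 7.19 FPKM in old replicate 3. The cAMP-responsive factor Rapgef3, likewise picked with its values in view, was at 40.2 ± 14.7 FPKM in old and 31.8 ± 0.982 FPKM in young libraries.

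Among 7 tested GTPase-activating and related genes, Sipa1l1, a relative of Sipa1, was at 28.6, 27.6 and 18.1 FPKM in old libraries and at 6.82, 15.4 and 9.94 FPKM in young libraries. All old values were above the young ones, with a log2 difference of 1.17 ± 0.53 and a limma adjusted p = 0.839. Rasa3, which acts on Ras and Rap proteins, was the most abundant of this list. It was at 71.9 ± 16.1 FPKM in old and 88.7 ± 13.0 FPKM in young libraries (SD, n = 3 each; limma adjusted p = 0.870). Arap3, which encodes a protein that binds Rap, was at 0.525, 1.24 and 18.1 FPKM in old libraries and at 0.855, 0 and 0 FPKM in young libraries (limma adjusted p = 0.845).

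Genes for other Rap proteins and for lipid processing of GTPases were low. Rce1, a protease that trims prenylated proteins, was at 11.1, 6.68 and 7.94 FPKM in old libraries and at 5.53, 0 and 0 FPKM in young libraries (limma adjusted p = 0.839). Fnta, the alpha subunit of protein prenyltransferases, was at 14.6 ± 5.56 FPKM in old and 6.42 ± 3.33 FPKM in young libraries (SD, n = 3 each; limma adjusted p = 0.844). Both had old libraries above young ones. Rap2c was at 7.76 ± 6.95 FPKM in old and 9.48 ± 2.97 FPKM in young libraries (limma adjusted p = 0.915).

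Of 17 tested effectors, 0 had a small p. Tln1, the integrin-binding protein talin, was at 79.4 ± 21.5 FPKM in old and 80.8 ± 17.3 FPKM in young libraries (SD, n = 3 each; limma adjusted p = 0.993). Stk4 was at 57.2 ± 21.6 FPKM in old and 50.2 ± 17.4 FPKM in young libraries (limma adjusted p = 0.954). Stk3, its relative, had all old libraries above the young ones, at 17.7 ± 2.80 FPKM in old and 10.6 ± 5.30 FPKM in young libraries (limma adjusted p = 0.854). Apbb1ip was at 2.24, 3.73 and 10.5 FPKM in old libraries and at 12.7, 4.11 and 0.00603 FPKM in young libraries (limma adjusted p = 0.959). Its low value in young replicate 3 falls in the same library as that of Crkl. Rasip1 and Tiam1 also had limma adjusted p of at least 0.844, and both were highest in old replicate 3.

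The chains of LFA-1 and VLA-4, integrins at the end of the pathway, overlapped between the groups. Itgal and Itgb2, the chains of LFA-1, were at 85.0 ± 32.1 and 125 ± 25.0 FPKM in old libraries and at 80.5 ± 10.9 and 124 ± 28.1 FPKM in young libraries (SD, n = 3 each). Itga4 and Itgb1, the chains of VLA-4, were at 53.4 ± 7.33 and 35.1 ± 8.42 FPKM in old libraries and at 64.6 ± 17.8 and 26.6 ± 5.17 FPKM in young libraries. The limma adjusted p was at least 0.875 for each of these 4 genes. Selplg, which encodes the selectin ligand PSGL-1, was at 40.1, 62.7 and 44.1 FPKM in old libraries and at 76.8, 90.0 and 102 FPKM in young libraries. All old values were below the young ones, with a log2 difference of -0.87 ± 0.34 and a limma adjusted p = 0.829. Itga5 was at 2.31, 1.55 and 7.29 FPKM in old libraries and at most 0.277 FPKM in young libraries (limma adjusted p = 0.839). Itgam, which encodes the CD11b used to exclude myeloid cells in the sort, was at 0.239, 7.30 and 4.65 FPKM in old libraries and at 0, 1.17 and 0 FPKM in young libraries (limma adjusted p = 0.844).

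**Figure D5:**
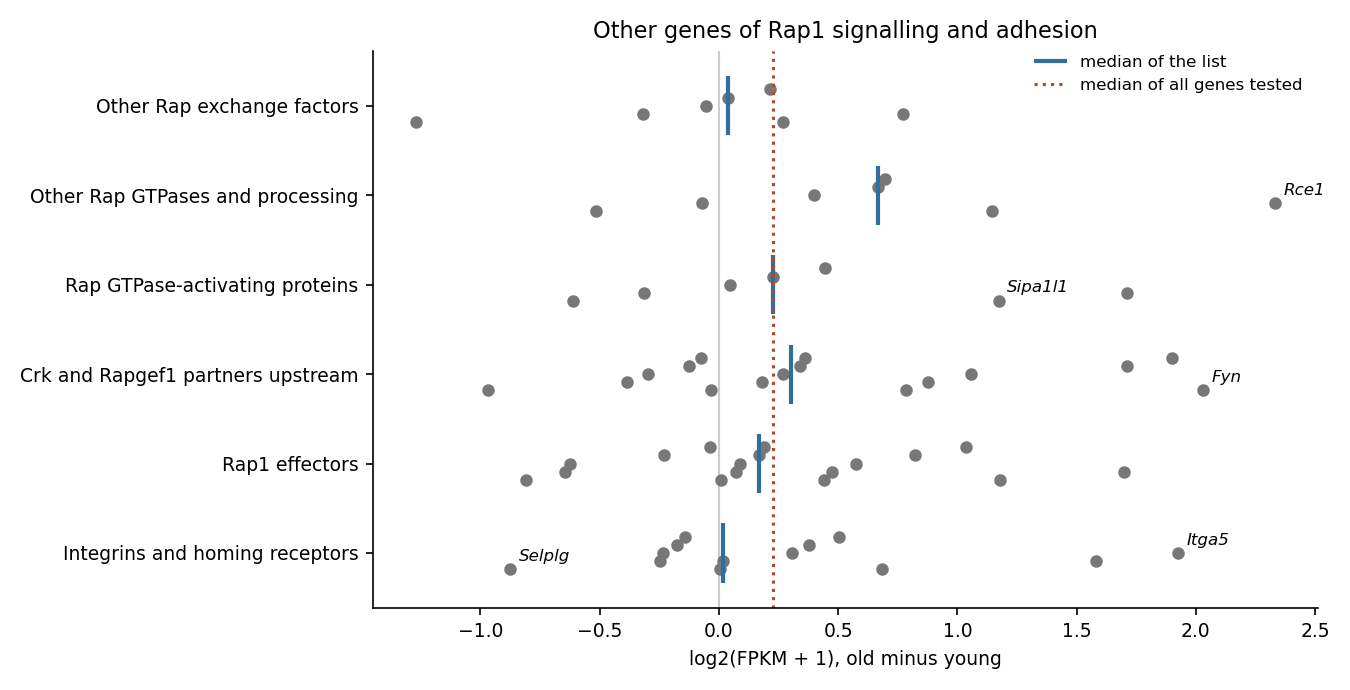
Old minus young difference in log2(FPKM + 1) of the 67 tested genes in 6 lists, 1 point per gene, with a blue bar at each list median and a dotted line at the median of all genes tested, 0.23. Genes with an unadjusted limma p under 0.05 are named, 4 to the right (Rce1, Sipa1l1, Fyn and Itga5) and Selplg to the left, and 0 passed the adjustment.

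Markers of other cells were compared as summed FPKM of lists of 7 or 8 genes. The groups overlapped for neutrophil markers (258 to 1197 in old, 354 to 562 in young libraries) and monocyte markers (1160.5 to 1606 in old, 1126 to 1280.4 in young libraries). They also overlapped for T cell markers (13.0 to 15.9 in old, 10.7 to 24.9 in young libraries) and B cell markers (22.1 to 50.8 in old, 19.5 to 43.4 in young libraries). Higher in old by group mean were 7 of 8 neutrophil and 4 of 6 monocyte genes in the table. So were 4 of 7 T cell and 2 of 6 B cell genes. Of the neutrophil genes, Elane, Mpo and Prtn3 were at 220, 264 and 86.2 FPKM in old replicate 3. In each other library they were at most 19.7, 31.6 and 2.70 FPKM. S100a9 was highest in old replicate 2, at 749 FPKM. Ctss made up most of the monocyte sum, at 957 to 1050 FPKM in old and 1010 to 1061 FPKM in young libraries. Lyz2, of the same list, was at 179, 196 and 516 FPKM in old and 26.7, 97.1 and 99.1 FPKM in young libraries. Of the T cell genes, Cd3d and Cd3e were listed at 0 in each young library, Cd3d also in old replicate 3 and Cd3e also in old replicate 1. Cd3g was at 0, 2.52 and 0.0437 FPKM in old libraries and at 0.0860, 1.74 and 5.05 FPKM in young libraries. Cd4 was the largest part of the T cell sum in each young library. It was at 5.11, 2.00 and 9.44 FPKM in old libraries and at 23.4, 8.91 and 8.34 FPKM in young libraries. Erythroid markers were at 35.2 to 745 FPKM in old and 0.320 to 264 FPKM in young libraries. Markers of megakaryocytes and platelets, cells rich in Rap1b, were at 4.44 to 53.3 FPKM in old and 0.160 to 12.2 FPKM in young libraries. All 6 genes in the table had a higher mean in old libraries. Pf4 and Gp9 were above 0 in old replicate 3 alone, and Ppbp and Gp1bb in old replicate 2 alone. These genes and Gp5 were listed at 0 in each young library, where the sums came from Itga2b. Plasmacytoid dendritic markers did not overlap, at 71.2 to 166 FPKM in old and 47.4 to 59.9 FPKM in young libraries, with 3 of 6 genes in the table higher in old. Cox6a2 alone was at 119, 24.2 and 48.4 FPKM in old libraries and at 0, 12.1 and 0 FPKM in young libraries. Without it the summed markers overlapped, at 47.0 to 50.4 FPKM in old and 35.2 to 59.9 FPKM in young libraries. The part of these cells in the differences above was not tested. In bulk libraries, fewer cells of a type and less RNA per cell cannot be told apart.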

How the data were processed

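The authors deposited 1 table of FPKM values per gene and library. Per the labels' protocols, a stranded total-RNA kit was used on 5 ng per library, with paired reads of 150 bases. The submitters' processing notes name bcl2fastq 2.17, STAR, DESeq2, GRCm38 and mm10 without roles. The counter, annotation and strand setting are not given in the sources used here. On the opposite strand, a pseudogene overlaps 4.43% of Rapgef1's exonic bases and Eif2d 1.95% of those of Rassf5. Of the identifiers, 99.9% matched GENCODE M21 without version numbers, which gave coordinates and lengths.

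FPKM are not counts. Depth was estimated from the most frequent low value times gene length, taken as 1 fragment. Such estimates cover counting error only, since amplified reads are not independent molecules. Differences were fitted by limma 3.58.1 (R 4.3.3, variance trend on) to log2(FPKM + 1), old minus young, over 10687 genes with a mean of at least 1 FPKM. Adjustment was by Benjamini-Hochberg. This scale understates the change of low genes. Tables were made with Python 3.11.15 and pandas 2.3.3.

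The members and lists were chosen with earlier results of these data known. Afdn stands in its list under an older symbol as well. Genes named are the 9 members, the 3 tested genes of smallest p per pathway list, 7 fixed integrin and effector genes, and the 6 nearest to Rapgef1. Dock2, Rapgef3, Mki67 and Top2a were added with their values in view, as were the marker genes named. Alternatives were another pseudocount, filter, scaling, variance model, a replicate block, and leaving out each library.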

Additional observations from a re-analysis of the deposited data

How the results depend on the processing

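Limma called 0 genes over all genes tested, and also under both other pseudocounts, both other filters, median-ratio scaling, no variance trend and the replicate block. It called 1 gene after quantile normalization, and between 0 and 7 genes when each library was left out, the 7 without young replicate 3. Under each alternative, 0 of the Rap1 pathway genes were called. Without young replicate 1, 969 genes had an unadjusted p under 0.05, against 632 over all libraries, and 383 did at a mean of at least 5 FPKM, where fewer genes are tested.

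The difference of Rapgef1 ranged from -1.30, with median-ratio scaling, to -1.13, without old replicate 3. Crk kept its sign under all 14 alternatives, though the filters, the variance model and the replicate block cannot change a gene's estimate. Each of the 7 members other than Rapgef1 and Crk changed sign under at least 1. The median of all genes tested was 0.23 over the deposited values, 0.13 with median-ratio scaling and -0.01 with quantile normalization. Without young replicate 3, Apbb1ip had a difference of -0.58, against 0.44 over all libraries.

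Same-numbered old and young libraries did not deviate together, with correlations of -0.034, 0.020 and -0.0041 over all genes tested. The numbers are not stated to pair the samples, so the replicate block was fitted as an alternative only. With the replicate block, 571 genes had an unadjusted p under 0.05. Depth limits values of a few fragments, such as Cblb and Apbb1ip in young replicate 3, more than those of Rapgef1.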
